A study of Mus musculus with 21 samples.

Results

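The 10 genes described here were 4 regulators of adipocyte formation, *Pparg*, *Cebpa*, *Cebpb* and *Cebpd*, and 6 genes of fatty acid uptake and handling, *Fabp4*, *Fabp5*, *Lpl*, *Cd36*, *Aqp7* and *Slc27a1*. They were taken by symbol from the 27373 gene names of the array, where 18 probes carried these names. Their RNA was measured in epididymal fat, skin and liver of mice lacking the kinase JNK1 (knockout, KO; the gene is *Mapk8*) and of wild type (WT) mice on 21 single-colour Agilent arrays. All mice, WT included, were male C57Bl6/J animals of 45 weeks that had received a high fat diet from 5 to 44 weeks of age, so no group on another diet stands beside them. There were 4 KO and 4 WT arrays of fat, 4 KO and 3 WT arrays of skin, and 3 KO and 3 WT arrays of liver. The labels do not say which arrays came from separate mice or shared a mouse, nor how the knockout was made, so the p-values speak to the scatter among the arrays, which may be partly technical.

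Fat cells form under a chain of transcription factors. C/EBPβ and C/EBPδ, encoded by *Cebpb* and *Cebpd*, act early and lead to *Pparg* and *Cebpa*, whose products then keep each other and the genes of the mature adipocyte active. Fatty acids reach the cell when lipoprotein lipase (*Lpl*) splits triglyceride at the vessel wall, CD36 and the acyl-CoA synthetase transporter encoded by *Slc27a1* help them across the membrane, the binding proteins FABP4 and FABP5 carry them inside, and the channel encoded by *Aqp7* lets glycerol out. JNK1 is a stress-activated kinase, and its loss is known to lessen weight gain and insulin resistance in mice on a high fat diet.

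Each level given here is the log2 of a probe's processed intensity minus the 75th percentile of its array, so 0 is that percentile and 1 unit is a doubling. Levels of a probe are compared between arrays and never with another probe. Of the 18 probes, 5 whose letters read as coding sequence are printed to show what the array measured in *Cebpa*, *Cebpb*, *Fabp4* and *Lpl*, with no base marked; no mm9 gene model was used here. On build mm9 the *Cebpa* probe lies at chr7:35905361-35905420, the *Cebpb* probe at chr2:167515309-167515368 and the *Lpl* probe at chr8:71425050-71425109. The first *Fabp4* probe spans 730 bases of the genome at chr3:10204533-10205262 and is therefore split in the genome, and the other lies at chr3:10208442-10208501.
Cebpa probe: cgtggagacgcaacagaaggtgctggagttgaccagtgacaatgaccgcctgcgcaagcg
Cebpb probe: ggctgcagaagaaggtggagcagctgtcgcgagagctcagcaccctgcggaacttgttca
Fabp4 probe 1: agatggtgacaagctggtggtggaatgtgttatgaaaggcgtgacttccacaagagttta
Fabp4 probe 3: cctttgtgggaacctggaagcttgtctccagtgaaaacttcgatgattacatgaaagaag
Lpl probe 2: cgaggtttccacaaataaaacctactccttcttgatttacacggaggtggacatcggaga

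Between 38.9% and 57.2% of probes were well above background on an array, and no probe was saturated. The scanner file of fat WT 2 correlated with skin arrays at 0.860 to 0.912 and with the other fat arrays at 0.719 to 0.760. It was left out, and fat WT 2 enters through its column of the authors' deposited value table, whose log2 scale is shown by its values and whose centring and normalization remain unknown. Every scanner value of fat below therefore rests on 4 KO and 3 WT arrays. *Mapk8*, the targeted gene, lay at −3.66 to −2.98 on the KO fat arrays and at −1.0 to −0.79 on the WT ones (limma adjusted p = 0.0167). In liver its KO range was −4.68 to −3.22 and its WT range −1.98 to −1.61 (adjusted p = 0.216), and in skin it was well above background on 0 of 4 KO and 2 of 3 WT arrays and was not tested. The labelled tissues carried their defining markers, and skin carried those of adipocytes too. *Adipoq* averaged 7.91 in WT fat, 7.36 in WT skin and −3.66 in WT liver, and *Cidec* 8.77, 8.66 and 5.34. *Krt5* averaged 9.39 in WT skin and −2.39 in WT fat, and *Alb* 9.78 in WT liver. Of the adipocyte markers, *Cfd* and *Slc2a4* were highest in WT skin, *Thrsp* in WT liver and the others in WT fat. Skin and fat arrays also held liver transcripts, with *Alb* at 5.82 in WT skin and 2.08 in WT fat. On each skin array 12 to 13 of 14 hepatocyte markers were well above background, and on each fat array used 8 to 13. *Hnf4a*, the hepatocyte transcription factor, was well above background on 0 of 7 skin arrays. It averaged 1.97 in WT liver and −4.61 in WT skin. The source of the liver transcripts in skin and fat was not tested.

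In wild type mice the uptake genes separated fat from liver by wide margins, while the regulators differed by less and did not all point to fat. All 8 members measured in both tissues differed between WT fat and WT liver (limma, adjusted p under 0.05 over 15965 genes), against 61.3% of all genes tested. Between tissues, the shares and medians of all genes are over genes tested in either tissue. That set is wider than genes measured in both, so the shares are only a rough measure beside the members. Of these 6 were higher and 2 lower in fat, where 31.3% and 30.0% of all genes were. Their median difference was 2.46 and that of all genes 0.04. *Aqp7*, at background in liver, and *Fabp5*, at background everywhere, are not in these counts. Between WT fat and WT skin, 6 of 9 differed, against 57.4% of all genes, 3 higher in fat (30.8% of all genes) and 3 lower (26.6%). Their median was 0.47 and that of all genes 0.16. Between WT skin and WT liver, 4 of 8 measured in both were higher in skin (29.5% of all genes) and 0 lower, against 64.0% of all genes in either direction, with a median of 1.23 beside −0.14 for all genes. Counts of 6 of 9 and 4 of 8 are near the share among all genes.

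**Figure D1:**
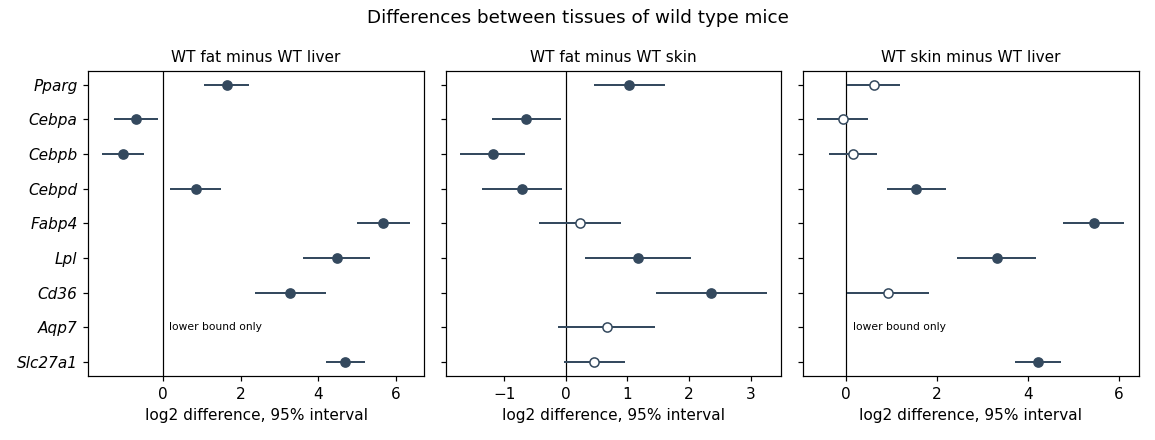
Differences in log2 level between tissues of wild type mice for 9 genes, with 95% intervals from the fit of all 6 groups; filled points passed an adjusted p of 0.05. *Fabp4*, *Lpl*, *Cd36* and *Slc27a1* lay 3.28 to 5.68 above liver in fat, and *Cebpa* and *Cebpb* lay below 0 in fat against both other tissues. *Aqp7* against liver has only a lower bound and is not drawn.

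*Pparg* encodes the nuclear receptor on which adipocyte formation depends, and its probe was spotted 10 times on each array. Its WT levels were 4.53, 4.53 and 4.62 in fat, 3.31, 3.73 and 3.55 in skin, and 3.04, 3.11 and 2.61 in liver. The 3 tissues did not overlap, in the order fat, skin, liver. WT fat exceeded WT skin by 1.03 (SE 0.26, adjusted p = 0.00323) and WT liver by 1.64 (SE 0.26, adjusted p = 3.9e-05). Skin exceeded liver by 0.61 (SE 0.26), which did not pass (adjusted p = 0.0526; 0.00863 to 0.190 over the alternatives). It did pass on quantile-normalized values (0.81), in the value table (0.80) and without skin WT 1 (0.72).

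The 3 C/EBP genes each had another tissue order. *Cebpa*, whose product is also a main regulator of hepatocytes, was at 4.05, 4.38 and 4.38 in WT fat, 5.47, 4.55 and 4.71 in WT skin, and 5.13, 4.91 and 4.91 in WT liver. Fat was lower than liver by the fit (−0.71, SE 0.26, adjusted p = 0.0228), but this turned to 0.06 on quantile-normalized values, was −0.33 in the value table, and lost its call without fat WT 1 or liver WT 1 (adjusted p 0.0105 to 0.791 over the alternatives). *Cebpa* was also lower in fat than in skin (−0.64, SE 0.26, adjusted p = 0.0406), a call lost without skin WT 1 (−0.36) or any 1 of the 3 WT fat arrays (−0.70 to −0.53). This difference was −0.39 in the value table and ran from −0.82 to −0.30 over the alternatives (limma adjusted p 0.0188 to 0.224). Skin and liver overlapped. The probe printed above gave −0.92 for fat against liver and −0.79 for fat against skin.

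*Cebpb* responds early to hormones and inflammatory signals and was the regulator lowest in fat relative to the other tissues. WT fat stood at 1.99, 1.99 and 1.81, WT skin at 3.32, 2.88 and 3.16, and WT liver at 2.93, 2.74 and 3.21. The differences were −1.19 against skin (SE 0.24, adjusted p = 5.8e-04) and −1.03 against liver (SE 0.24, adjusted p = 0.00144), with 0.16 between skin and liver (SE 0.24, adjusted p = 0.587). The printed probe gave −0.95 and −0.87 for the same fat differences.

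*Cebpd*, the other early factor, was highest in skin, at 4.94, 4.48 and 4.75. WT fat gave 3.99, 3.69 and 4.33 and WT liver 3.12, 2.74 and 3.64, so all 3 tissues stood apart on these arrays. In the value table the added WT fat array, WT 2, lay below liver WT 3 (11.445 against 11.597), so fat and liver overlapped there. Skin exceeded liver by 1.55 (SE 0.30, adjusted p = 2.2e-04) and fat exceeded liver by 0.84 (SE 0.30, adjusted p = 0.0221), the latter not called without liver WT 1 (0.81), liver WT 2 (0.62) or fat WT 4 (0.67). Fat lay 0.71 below skin (−0.71, SE 0.30, adjusted p = 0.0497), a call lost on quantile-normalized values (−0.39) and without skin WT 1, skin WT 3, fat WT 1 or fat WT 3 (−0.71 to −0.56). Hepatocytes also make the C/EBP factors, and the share of the liver transcripts in skin in these skin levels was not tested.

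**Figure D2:**
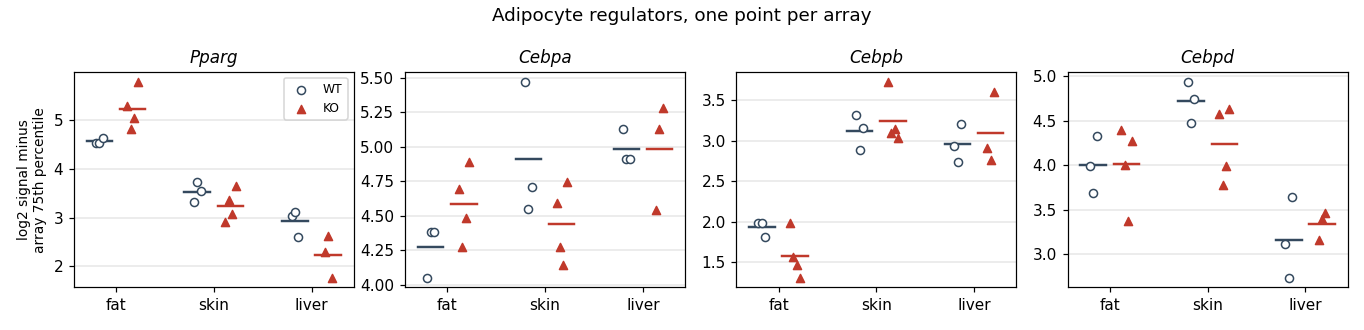
Log2 level (0 is each array's 75th percentile) of the 4 regulators on each array of fat, skin and liver; open circles are WT, red triangles KO, and bars are group means. All 4 KO fat arrays of *Pparg* (4.82 to 5.78) sat above the 3 WT fat arrays (4.53 to 4.62), and *Cebpb* was below 2.0 on every fat array.

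Among the uptake genes, *Fabp4*, the adipocyte carrier of fatty acids, read 9.15, 9.41 and 9.17 in WT fat, 8.55, 9.33 and 9.15 in WT skin, and 3.03, 3.54 and 4.12 in WT liver. Fat lay 5.68 above liver (SE 0.31, adjusted p = 9.2e-11) and skin 5.45 above liver (SE 0.31, adjusted p = 1.3e-10). Fat and skin overlapped, with a difference of 0.23 (95% interval −0.42 to 0.88, adjusted p = 0.538). Its probes disagreed on that last comparison: the first probe printed above gave 0.23, the second −0.66 and the third, also printed, 1.38. In the value table the same probes gave 1.07, 0.08 and 1.73, and over the alternatives the adjusted p ran from 7.6e-04 to 0.994, so the order of fat and skin is not settled for *Fabp4*.

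*Lpl* showed a clearer order of fat, skin and liver. It read 7.42, 7.61 and 7.41 in WT fat, 5.41, 6.94 and 6.58 in WT skin, and 3.23, 3.02 and 2.74 in WT liver. Fat exceeded liver by 4.48 (SE 0.40, adjusted p = 3.4e-08), skin exceeded liver by 3.31 (SE 0.40, adjusted p = 1.2e-06) and fat exceeded skin by 1.17 (SE 0.40, adjusted p = 0.0186). The latter was 0.72 without skin WT 1 and 1.11 without fat WT 3, both not called, and the printed probe gave 2.04.

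*Cd36*, whose product binds and passes long-chain fatty acids, had the widest gap between fat and skin among the members tested. Its WT levels were 6.64, 6.65 and 6.67 in fat, 2.93, 5.13 and 4.82 in skin, and 3.40, 3.25 and 3.47 in liver. Fat exceeded skin by 2.36 (SE 0.42, adjusted p = 1.6e-04) and liver by 3.28 (SE 0.42, adjusted p = 3.0e-06). Skin WT 1 lay below all 3 liver arrays, and skin against liver did not pass (0.92, SE 0.42, adjusted p = 0.0649), but passed at 1.6 without that array.

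*Aqp7* was well above background on all fat and skin arrays and on none of the 6 liver arrays, which gives only a bound there. Taking for each liver array the higher of its own signal and the lowest signal well above background, WT fat was at least 38.7-fold and WT skin at least 24.4-fold above liver, and the KO bounds were 45.7-fold and 12.5-fold. WT fat (1.83, 1.65 and 2.06) lay just above WT skin (1.62, 1.0 and 0.93), by 0.66 (SE 0.36, adjusted p = 0.128). In the value table they overlapped, with fat WT 2 (9.82) below skin WT 1 (9.94). That difference passed with normexp background correction (0.88) and on quantile-normalized values (0.80), with adjusted p from 0.00731 to 0.591 over the alternatives.

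*Slc27a1* overlapped between WT fat (3.42, 3.87 and 3.98) and WT skin (3.79, 3.01 and 3.08) on its main probe, with a difference of 0.47 (SE 0.23, adjusted p = 0.0929). The second probe gave 0.84, with fat (4.10 to 4.37) wholly above skin (3.13 to 3.77). The main-probe difference passed with normexp (0.74), on quantile-normalized values (0.82) and without skin WT 1 (0.72) or fat WT 1 (0.63). Over the alternatives the adjusted p ran from 0.00314 to 0.289. WT liver read −0.97, −0.93 and −0.92, and fat lay 4.70 above it (SE 0.23, adjusted p = 2.7e-11). *Slc27a1* is also known from skeletal muscle, whose 12 markers averaged 8.15 to 8.31 on the WT skin arrays and −1.43 to −0.95 on the WT fat arrays; their part in its skin level was not tested.

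*Fabp5*, the carrier known from keratinocytes and macrophages, could not be read. Its single probe was well above background on 0 of 21 arrays, skin included, with levels between −6.38 and −4.41 on the WT arrays used, so it was tested nowhere and no level is claimed for it.

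Among the genes around the members, 13 of 23 PPARG targets tested were called higher in WT fat than in liver and 4 lower, with a median of 1.6, beside 31.3% and 30.0% of all genes. Against skin, 4 of the 23 were called higher in fat and 2 lower (median 0.50), beside 30.8% and 26.6% of all genes. Factors that restrain adipocyte formation were called higher in fat than in liver for 8 of 14 and lower for 1 (median 1.10). The lipoprotein lipase system was called higher in fat for 2 of 14 and lower for 9 (median −3.30), the other fatty acid transport genes for 5 and 10 of 20 (median −1.03), and the glycerol genes for 0 and 4 of 6 (median −2.41). None of these lists holds a member, and several of their genes, such as those of the secreted apolipoproteins, are known mainly from liver. The counts and medians of the lists take genes tested in either tissue, so some entered through fat alone. Within liver, 20 of the PPARG targets and 9 of the restraining factors could be tested. For genes at background in liver the size of the difference is not measured.

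**Figure D3:**
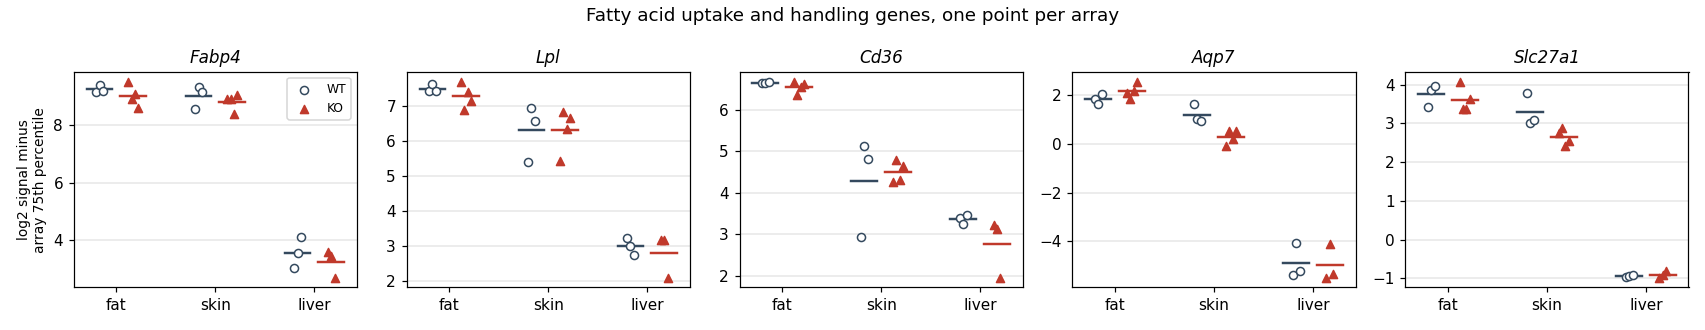
Log2 level (0 is each array's 75th percentile) of 5 uptake and handling genes on each array; open circles are WT, red triangles KO, and bars are group means. The liver points lie far below fat and skin for *Fabp4*, *Lpl*, *Aqp7* and *Slc27a1*; those of *Aqp7* were not well above background. In skin the KO arrays of *Aqp7* (−0.09 to 0.54) and *Slc27a1* (2.43 to 2.88) sit below the WT arrays (0.93 to 1.62 and 3.01 to 3.79).

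Whether loss of JNK1 changed these genes was compared within each tissue. No member passed an adjusted p of 0.05 in any tissue: 0 of 9 tested in fat, 0 of 9 in skin and 0 of 8 in liver (limma). The background was as low, with 0.0131% of 15244 genes called in fat, 0.0148% of 13495 in skin and 0.0226% of 13300 in liver. At an unadjusted p under 0.05 the counts were 1 member in fat, 2 in skin and 1 in liver, against 7.93%, 7.88% and 6.07% of all genes. Groups did not overlap for 1 member in fat, with KO above WT (6.63% of all genes), for 2 in skin, with KO below WT (8.17%), and for 1 in liver, with KO below WT (6.22%). The median KO minus WT difference of the members was −0.10 in fat, −0.28 in skin and −0.09 in liver, beside 0.08, −0.10 and −0.00 for all genes. The values below therefore describe these arrays, and no member is called changed. In whole tissue, fewer cells of a type and less RNA per cell cannot be told apart.

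**Figure D4:**
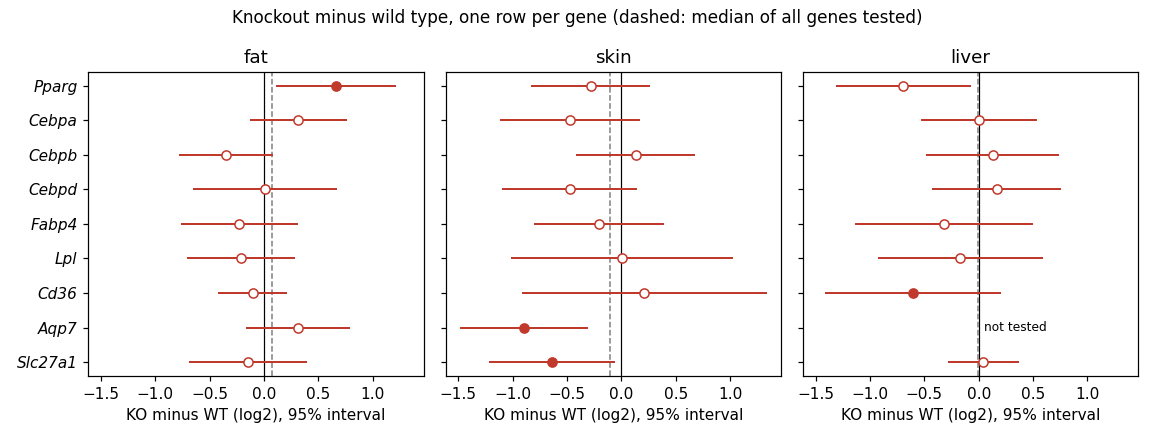
KO minus WT difference in log2 level with its 95% interval for 9 genes in each tissue; filled points are genes whose KO and WT arrays did not overlap, and the dashed line is the median of all genes tested. *Pparg* lay at 0.66 in fat and −0.69 in liver, and *Aqp7* (−0.89) and *Slc27a1* (−0.64) lay lowest in skin.

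*Pparg* gave the member difference with the lowest p in fat. The 4 KO arrays read 5.28, 4.82, 5.03 and 5.78 and the WT arrays 1, 3 and 4 read 4.53, 4.53 and 4.62. Every KO array was above every WT array. The difference was 0.66 (SE 0.23, 95% interval 0.12 to 1.21, unadjusted p = 0.0224, adjusted p = 0.562), which ranked 604 of 15244. In the authors' deposited value table, which adds WT 2, the KO columns read 13.66, 13.29, 13.36 and 13.94 and the WT columns 12.98, 12.63, 12.91 and 12.98. These 8 also did not overlap, which held for 4.35% of all genes in that direction (difference 0.69, SE 0.17, unadjusted p = 0.00326, adjusted p = 0.264). At an unadjusted p under 0.05 the table gave 11.7% of all genes. With the scanner file of fat WT 2 as deposited the difference was 1.15. Array slide and genotype were largely confounded: only 1 of 4 slides used for fat held both, and on it KO 2 exceeded WT 4 by 0.20, which is also the value with slide as a block (unadjusted p = 0.669). Over all alternatives the adjusted p ran from 0.264 to 1.0.

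The other regulators in fat overlapped between genotypes, in the value table as well. *Cebpa* read 4.69, 4.27, 4.48 and 4.89 in KO, mostly above the 4.05, 4.38 and 4.38 of WT (difference 0.32, SE 0.19, adjusted p = 0.728), with −0.10 between the 2 arrays of the shared slide and with slide as a block. *Cebpb* read 1.98, 1.56, 1.47 and 1.31 in KO, of which 3 arrays lay below the WT range of 1.81 to 1.99 (−0.35, SE 0.18, adjusted p = 0.695). The printed *Cebpb* probe did not show this, at 0.85 to 1.33 in KO and 0.87 to 1.41 in WT (−0.11). *Cebpd* spanned 3.38 to 4.40 in KO and 3.69 to 4.33 in WT (0.01, SE 0.28, adjusted p = 0.997).

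The uptake genes in fat overlapped between genotypes. *Aqp7* read 2.08, 1.84, 2.17 and 2.55 in KO against 1.83, 1.65 and 2.06 in WT (0.31, SE 0.20, adjusted p = 0.751), with −0.23 on the shared slide. The table column of fat WT 2, at 9.82, was the lowest of the 8 on this *Aqp7* probe, and WT 4 (10.29) kept the groups overlapping. The other *Aqp7* probe gave a smaller difference, 0.08, and 0.06 in the value table. *Fabp4* read 9.51, 8.89, 9.08 and 8.59 in KO against 9.15, 9.41 and 9.17 in WT (−0.23, SE 0.23, adjusted p = 0.819). *Lpl* read 7.69, 6.87, 7.39 and 7.14 against 7.42, 7.61 and 7.41 (−0.21, SE 0.21, adjusted p = 0.819). On these probes KO 1 was the highest of all 7 arrays, while the other KO arrays lay below every WT array. This order also held on *Fabp4* probe 2 (difference −0.18). It did not on *Fabp4* probe 3 (0.03), nor on *Lpl* probe 2, which read 6.21, 6.40, 6.81 and 6.94 in KO, lowest on KO 1, against 6.32, 6.65 and 6.57 in WT (0.07). *Slc27a1* read 4.08, 3.37, 3.37 and 3.62 against 3.42, 3.87 and 3.98 (−0.15, SE 0.23, adjusted p = 0.877). *Cd36* was the most even, at 6.68, 6.36, 6.54 and 6.63 against 6.64, 6.65 and 6.67 (−0.10, SE 0.13, adjusted p = 0.852). For *Cd36* that interval ran from −0.41 to 0.21, the narrowest of the members in fat.

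The known targets of PPARG in adipocytes, a list of 24 genes of which 23 were found and tested, were split in fat. Of these, 11 were higher and 12 lower in KO and 0 were called, with a median of −0.01. Groups did not overlap for 2 with KO above and 1 with KO below WT, the latter beside 2.90% of all genes. *Pex11a*, a peroxisome division gene, lay at 0.65 (SE 0.17, adjusted p = 0.492) and *Angptl4*, which encodes an inhibitor of lipoprotein lipase, at 0.31 (SE 0.13, adjusted p = 0.637), both KO above WT. *Ucp1*, the uncoupling protein of brown fat, lay at −1.81 without overlap (SE 0.45, adjusted p = 0.489) and *Cidea*, a lipid droplet gene, at −0.72 (SE 0.29, adjusted p = 0.593). The partners and cofactors of PPARG were higher for 10 of 14, with a median of 0.19, and *Rxrg* led them at 0.45 (SE 0.22, adjusted p = 0.667).

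Other genes around the members in fat gave 0 calls. Among factors that restrain adipocyte formation, 8 of 14 were higher, and *Gata2* (−0.61, SE 0.18, adjusted p = 0.556) and *Hes1* (−0.63, SE 0.20, adjusted p = 0.559) lay lower without overlap. Among factors that favour it, 10 of 15 were higher, and *Klf15*, which promotes adipocyte formation, lay at 0.55 (SE 0.24, adjusted p = 0.632). In the lipoprotein lipase system 9 of 13 were higher, with *Gpihbp1*, the endothelial anchor of the enzyme, at 0.52 (SE 0.22, adjusted p = 0.632) and the lysosomal lipase *Lipa* at −0.79 (SE 0.22, adjusted p = 0.505). The heart and muscle carrier *Fabp3* lay at −0.80 (SE 0.19, adjusted p = 0.489) among 20 other fatty acid transport genes, of which 11 were higher, and *Fabp7*, the brain-type carrier, at −1.31 (SE 0.38, adjusted p = 0.537), both KO below WT. Of 6 genes of glycerol channels and glycerol use 2 were higher, with the channel gene *Aqp11* at 0.55 (SE 0.21, adjusted p = 0.587), KO above WT.

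The levels of cell type markers in fat stand beside these values, with 0 markers called in any list. Macrophage markers were lower in KO for 9 of 10 tested (median −0.59), with the mean of 12 markers at 1.33 to 2.02 in KO and 2.02 to 2.16 in WT. Adipocyte markers were higher for 9 of 12 (median 0.26), at 4.54 to 5.21 against 4.45 to 4.71. Endothelial markers were higher for 12 of 12 (median 0.30), at 2.21 to 2.73 against 1.92 to 2.31, and hepatocyte markers, at −2.04 to 0.57 against −3.24 to −0.20, for 12 of 12 (median 0.84). Lymphocyte markers were higher for 6 of 7 (median 0.47), at −2.03 to −0.97 against −2.05 to −1.79. Skeletal muscle markers were lower for 8 of 11 (median −0.41), at −2.76 to −0.44 against −1.43 to −0.95. In the value table with all 8 fat arrays, macrophage markers were lower for 10 of 10 (median −0.85) and hepatocyte markers split 6 to 6 (median 0.03). *Cd36*, *Fabp4* and *Lpl* are also expressed by macrophages, and *Cd36* and *Fabp4* by endothelial cells; the part of these markers in the values of the members was not tested.

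**Figure D5:**
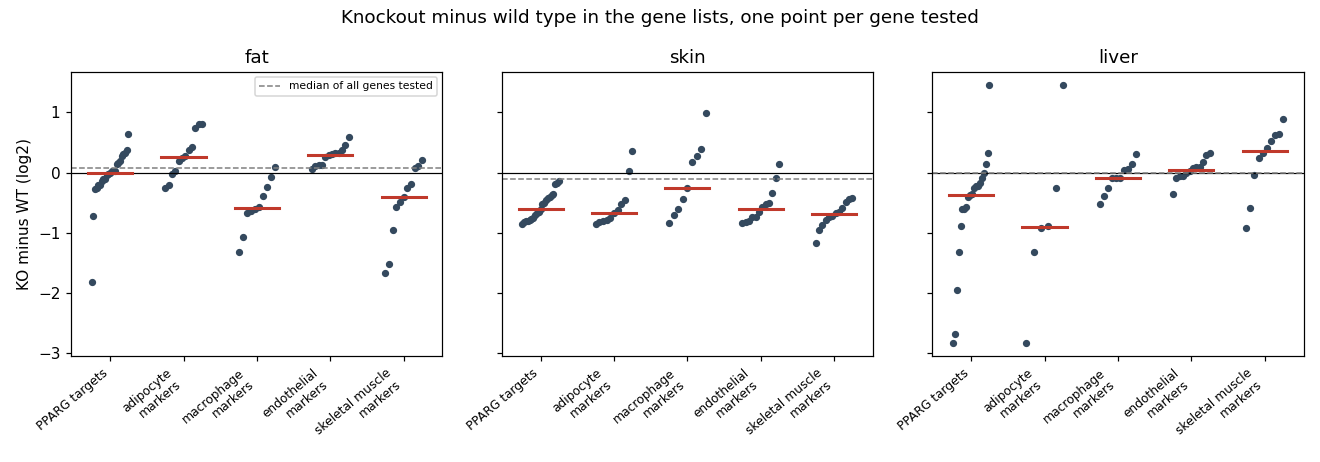
KO minus WT difference in log2 level of each tested gene of 5 lists in fat, skin and liver; red bars are list medians and the dashed line the median of all genes tested. In skin all 21 PPARG targets and all 12 skeletal muscle markers lay below 0, in fat 9 of 10 macrophage markers did, and in liver 17 of 20 PPARG targets did.

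In skin the member values leaned down, and *Aqp7* and *Slc27a1* stood lowest. *Aqp7* read −0.09, 0.51, 0.19 and 0.54 in KO and 1.62, 1.0 and 0.93 in WT. All KO arrays were below all WT arrays (−0.89, SE 0.25, 95% interval −1.48 to −0.31, unadjusted p = 0.00735, adjusted p = 0.519), as they were in the value table (−0.74), where this held for 5.65% of all genes in that direction. The other *Aqp7* probe gave −0.75, also without overlap, but it covers 38 of the same genomic bases and is not an independent reading. Without the dim arrays KO 1 and WT 1 the difference was −0.55, and over the alternatives the adjusted p ran from 0.260 to 1.0.

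*Slc27a1* read 2.75, 2.88, 2.43 and 2.56 in KO and 3.79, 3.01 and 3.08 in WT. The groups did not overlap (−0.64, SE 0.25, 95% interval −1.21 to −0.07, unadjusted p = 0.0318, adjusted p = 0.555), and the second probe gave −0.67, again without overlap. WT 1 carried much of this: without it the difference was −0.39. In the value table the groups overlapped, with a difference of −0.54, and over the alternatives the adjusted p ran from 0.245 to 1.0.

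The regulators in skin overlapped between genotypes on their main probes. *Cebpa* read 4.59, 4.27, 4.14 and 4.74 in KO against 5.47, 4.55 and 4.71 in WT (−0.48, SE 0.28, adjusted p = 0.555). Its printed probe gave −0.40 without overlap, in the value table too. *Cebpd* read 4.58, 3.78, 3.99 and 4.63 against 4.94, 4.48 and 4.75 (−0.48, SE 0.27, adjusted p = 0.555). *Pparg* read 2.90, 3.36, 3.08 and 3.64 against 3.31, 3.73 and 3.55 (−0.28, SE 0.23, adjusted p = 0.598). *Cebpb* was slightly the other way (0.13, SE 0.24, adjusted p = 0.802), with KO 1 at 3.73 above the rest. Of the uptake genes, *Fabp4* read 8.91, 8.90, 8.40 and 9.03 in KO against 8.55, 9.33 and 9.15 in WT (−0.20, SE 0.26, adjusted p = 0.716). *Lpl* read 5.43, 6.83, 6.33 and 6.65 against 5.41, 6.94 and 6.58, the lowest of each group being replicate 1 (0.00, SE 0.44, adjusted p = 0.997). *Cd36* read 4.25, 4.80, 4.31 and 4.65 against 2.93, 5.13 and 4.82 (0.21, SE 0.49, adjusted p = 0.851), and turned to −0.47 without WT 1.

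Beside these members all 21 tested PPARG targets lay lower in KO skin, with 0 called and a median of −0.61 beside −0.10 for all genes. Groups did not overlap for 7 of them, with KO below WT, beside 8.17% of all genes. *Angptl4* lay at −0.61 (SE 0.22), *Plin4* at −0.77 (SE 0.29), *Slc2a4*, the insulin-dependent glucose transporter, at −0.86 (SE 0.33) and *Plin1*, which coats lipid droplets, at −0.80 (SE 0.32), each with an adjusted p of 0.555. *Rxrg* among the partners lay at −1.14 (SE 0.32, adjusted p = 0.519), where 12 of 14 were lower. Among factors that favour adipocyte formation 12 of 15 were lower, with *Zfp423*, a preadipocyte factor, at −0.69 (SE 0.24, adjusted p = 0.555). Among factors that restrain it 10 of 13 were lower, with the preadipocyte gene *Dlk1* at −1.27 (SE 0.40, adjusted p = 0.555). Of 19 other fatty acid transport genes 12 were higher, with the synthetase gene *Acsl3* at 1.0 (SE 0.29, adjusted p = 0.549), KO above WT. Without the dim arrays KO 1 and WT 1 the PPARG targets were lower for 20 of 21, with a median of −0.34.

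Markers of some other cells were lower in the same direction, while those of others leaned up. Skeletal muscle markers were lower for 12 of 12 (median −0.69), at 6.58 to 8.07 in KO and 8.15 to 8.31 in WT, endothelial markers for 11 of 12 (median −0.61), at 0.43 to 1.31 and 1.41 to 1.54, and adipocyte markers for 9 of 11 (median −0.67), at 3.03 to 3.88 and 3.78 to 4.01. Without KO 1 and WT 1 these medians were −0.37, −0.36 and −0.39. The adipocyte markers and the PPARG targets share 7 genes. Keratinocyte markers were higher in KO for 8 of 12 (median 0.10), at 5.77 to 6.60 in KO and 5.60 to 6.09 in WT. Hepatocyte markers were higher for 9 of 12 (median 0.32), at 1.01 to 2.45 and 1.21 to 1.87, and sebaceous gland markers for 4 of 6 (median 0.09). Without KO 1 and WT 1 the hepatocyte markers were higher for 12 of 12 (median 0.86) and the keratinocyte markers for 8 of 12 (median 0.11). No skin slide held both genotypes, so slide and genotype cannot be told apart beyond a random slide term, under which *Aqp7* had an unadjusted p of 0.00892. The part of these markers in the values of *Aqp7* and *Slc27a1* was not tested.

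In liver *Pparg* lay the other way from fat. It read 2.30, 2.62 and 1.77 in KO and 3.04, 3.11 and 2.61 in WT, with KO 2 level with WT 3. The difference was −0.69 (SE 0.26, 95% interval −1.30 to −0.08, unadjusted p = 0.0311, adjusted p = 0.789), and in the value table the groups did not overlap (−0.71), as for 7.09% of all genes in that direction. KO 3 weighed on it: without that array the difference was −0.46. Over the alternatives that kept at least 2 KO arrays the adjusted p ran from 0.579 to 1.0.

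*Cd36*, which PPARG drives in fatty liver, read 3.23, 3.12 and 1.95 in KO and 3.40, 3.25 and 3.47 in WT. All 3 KO arrays were below WT (−0.60, SE 0.34, unadjusted p = 0.118, adjusted p = 0.942). KO 1 and KO 2 lay close under the WT arrays and KO 3 far under them, and the difference was −0.20 without KO 3. The groups overlapped in the value table and with the second probe. *Fabp4* read 3.58, 3.45 and 2.69 in KO against 3.03, 3.54 and 4.12 in WT, and *Lpl* 3.18, 3.18 and 2.11 against 3.23, 3.02 and 2.74, again with KO 3 lowest. *Fabp4* (−0.32, SE 0.34), *Lpl* (−0.17, SE 0.32), *Cebpd* (0.17, SE 0.25), *Cebpb* (0.13, SE 0.26), *Slc27a1* (0.04, SE 0.13) and *Cebpa* (0.00, SE 0.22) all overlapped between genotypes with adjusted p of 1.0. *Slc27a1*, near the dim end in liver, did not overlap in the value table, with KO above WT (0.19), as for 4.70% of all genes. Its second probe gave 0.73, and 0.77 in the value table, both with overlap. On that probe WT 3 read −3.38 and was not well above background. *Cebpa* in liver was the member closest to 0, with a 95% interval of −0.52 to 0.52.

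The PPARG targets in liver were lower in KO for 17 of 20, with 0 called and a median of −0.37 beside −0.00 for all genes. Groups did not overlap for 7 of them, with KO below WT, beside 6.22% of all genes. *Cidec*, a lipid droplet gene known to rise in fatty liver, averaged 2.51 in KO and 5.34 in WT (−2.83, SE 0.69, adjusted p = 0.474). *Cidea* lay at −2.68 (SE 0.81, adjusted p = 0.623) and *Plin4* at −1.96 (SE 0.57, adjusted p = 0.618), each without overlap. Among PPARG partners and cofactors, *Ppargc1b* (−0.93, SE 0.17, adjusted p = 0.319), *Ppara* (−0.68, SE 0.17, adjusted p = 0.531) and *Ppargc1a* (−0.37, SE 0.15, adjusted p = 0.807) were lower without overlap, and 8 of 13 were lower.

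Adipocyte markers in liver were mostly near background, so few could be tested. At most 7 of 12 were well above background on a liver array, and 5 of the 6 tested were lower in KO (median −0.90). *Lep* and *Retn* were well above background on 0 of 6 liver arrays and *Plin1* on 2, while *Cidec* was on 6. Skeletal muscle markers varied widely among liver arrays, at −4.30 to 0.66 in KO and −4.11 to 0.28 in WT, and keratinocyte markers at −2.66 to −0.97 and −2.81 to −1.42. Fibroblast and preadipocyte markers were lower in KO for 9 of 11 (median −0.39), and their mean was 0.44 on KO 3 against 1.21 to 1.29 on the other 5 arrays. Leaving out KO 1, KO 2 and WT 3, a choice made after seeing the data, leaves KO 3 as the lone KO array: there, with no replicate check, the PPARG targets were lower for 14 of 20 (median −0.34), skeletal muscle markers for 10 of 10 (median −1.74) and fibroblast markers for 11 of 11 (median −0.80). The part of these markers in the values of *Pparg* and *Cd36* was not tested, and no liver slide held both genotypes.

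The opposite signs of *Pparg* in fat and liver were tested directly in one fit of all groups. The KO effect in fat exceeded that in liver by 1.36 (SE 0.36, 95% interval 0.60 to 2.12, unadjusted p = 0.00157, adjusted p = 0.372; 0.191 to 0.947 over the alternatives). It exceeded that in skin by 0.95 (SE 0.35, unadjusted p = 0.0146, adjusted p = 0.332). Of the members measured in both tissues, 0 of 8 passed for fat minus liver, 0 of 9 for fat minus skin and 0 of 8 for skin minus liver. Of all genes tested in either tissue, 0.0564%, 0.423% and 0.162% passed. *Aqp7* gave 1.21 for fat minus skin (SE 0.48, unadjusted p = 0.0227, adjusted p = 0.383), with values from 0.31 to 1.58 over the alternatives. *Cebpa* gave 0.79 (SE 0.34, unadjusted p = 0.032, adjusted p = 0.398), with 0.51 to 0.97 over the alternatives. *Slc27a1* gave −0.68 for skin minus liver (SE 0.31, unadjusted p = 0.045, adjusted p = 0.627), with −1.40 to −0.43 over the alternatives. At an unadjusted p under 0.05 these were 1, 3 and 1 members, beside 4.67%, 11.9% and 7.85% of all genes.

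The sequence before the start of *Pparg* and *Aqp7* is shown because C/EBP factors are known to act on the adipocyte start of *Pparg* and PPARG on *Aqp7*. RefSeq (GRCm38.p6) sequences matched 6 of the 10 members, with 11 starts. The 250 bases before *Pparg* start 3 lie on the plus strand at chr6:115421816-115422065 and those before *Aqp7* start 1 on the minus strand at chr4:41048137-41048386. Capitals mark TTGCNNAA, the C/EBP core, in *Pparg*, and AGGTCA, a core site of nuclear receptors, in *Aqp7*, each searched on both strands.
Pparg start 3: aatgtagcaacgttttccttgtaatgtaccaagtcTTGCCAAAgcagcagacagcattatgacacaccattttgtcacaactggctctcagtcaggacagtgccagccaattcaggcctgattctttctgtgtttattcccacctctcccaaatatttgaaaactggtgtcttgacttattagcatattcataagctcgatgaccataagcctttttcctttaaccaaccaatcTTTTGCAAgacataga
Aqp7 start 1: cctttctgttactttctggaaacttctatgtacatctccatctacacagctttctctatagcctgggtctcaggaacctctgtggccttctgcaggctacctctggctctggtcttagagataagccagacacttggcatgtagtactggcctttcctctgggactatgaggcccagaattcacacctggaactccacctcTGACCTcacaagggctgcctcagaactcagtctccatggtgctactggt
The *Pparg* matches begin 215 and 16 bases before the start and the *Aqp7* match 49 bases before it. TTGCNNAA was found before 1 of the 11 starts, and in 9.57% of the 32841 sequences of the same length in the table. AGGTCA was found in 5 of the 11 and in 14% of all. The 2 *Aqp7* windows among these 5 overlap, and the match 49 bases before start 1 is also the one 223 bases before start 2. Its spaced direct repeat, the motif that PPARG and its partner RXR are known to bind, was found in 0 of the 11 and 0.0335% of all. The array probes do not tell the starts of a gene apart, and a match is a string of letters, not a measured site.

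The genes whose levels ran most like a member across the 20 arrays were ranked by Pearson's r over 16767 other gene names. For *Pparg* they included *1700112E06Rik* (0.977), *Nudt13* (0.970), *Aifm2* (0.967) and *Itgb1bp1* (0.963). For *Cebpb* the named ones were *Gltpd1* (0.953), *Sdc1* (0.951) and *Dedd2* (0.951), beside the array's own names NAP102240-1 (0.958) and NAP027536-1 (0.952). The arrays share tissue, so these values mostly carry differences between fat, skin and liver. Within the 7 fat arrays, *Syde1* (0.995), *Eci2* (0.992), *Trpt1* (0.989), *Kptn* (0.988) and *Eif3l* (0.988) were most like *Pparg*, and *Sptbn4* (0.986), NAP055926-1 (0.984), *BC052554* (0.979), *Rpl30* (0.975) and *Rpl6* (0.974) most like *Lpl*. For *Fabp5*, whose values were all at background, *Asna1* (0.905) headed the list and nothing is read from it.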

How the data were processed

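The single-colour arrays (Agilent design with 41174 probes) were scanned by the authors. Per the file headers, each deposited intensity had its background and spatial trend taken off by the scanner software and was not scaled between arrays. The submitters' processing notes name Agilent Feature Extraction 10.7.3.1 and limma, with no role. The deposited value table is in log2 and how it was made is not given in the sources used here, its column medians running from 5.76 to 6.00. Here log2 of the intensity minus each array's 75th percentile was averaged over unflagged spots (298 probe values were dropped for outlier flags), and the probe with the highest mean stood for a gene name. A gene was tested in a tissue if well above background on at least 3 of its arrays, and between tissues if this held in either of them. R 4.3.3 with limma 3.58.1 gave moderated tests: KO against WT within each tissue, and tissue comparisons and differences between effects from one fit of 20 arrays, with p-values adjusted by Benjamini-Hochberg over all genes tested. The code was tested on simulated data.

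The genes named are all members with every probe, *Mapk8*, and at most 4 genes of a pathway list per comparison, those with the lowest p. Beside them stand markers from among the 2 highest of a list and genes from among the 5 most correlated for *Pparg*, *Cebpb*, *Fabp5* and *Lpl*. *Hnf4a*, the markers *Cfd*, *Slc2a4* and *Thrsp*, and *Lep*, *Retn* and *Plin1* in liver, were named after their values were seen. Members and lists were chosen with earlier results of these data known. The gene names of the lists were matched by symbol, older symbol or accession; *Pck1*, *Awat1* and *Spink13* were not matched. Samples were grouped by the genotype and tissue labels. The main fits did not pair samples by replicate number. Deviations of same-numbered arrays correlated at −0.23 to 0.19 between genotypes of a tissue and −0.15 to 0.24 between tissues of a genotype. With so few arrays in a group, these values cannot decide which arrays shared a mouse. Arrays give no counts, so their number limits the precision. One gene that the rule names is not reported here.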

Additional observations from a re-analysis of the deposited data

Results flagged for a closer look

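One member value stood far from the other arrays of its group. *Cebpb* in the skin array KO 1 read 3.73, where the nearest of the other 3 KO skin arrays read 3.14, and the gap was 0.835 of the group's range, just over Dixon's limit for 4 arrays. Of the 18 groups of 4 arrays examined, 1 exceeded that limit, and chance alone gives about 1 in 20. The WT skin arrays spanned 2.88 to 3.32. On the second *Cebpb* probe, which was not among these groups, KO 1 read 3.06 and the other KO skin arrays 1.97 to 2.06. There the WT skin arrays spanned 1.85 to 2.43.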

How the results depend on the processing

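No member was called between KO and WT, or for a difference between tissues in that effect, under any of the alternatives that could be fitted, including leaving out each array in turn (0 to 0 in each comparison). With a replicate block the calls were also 0 in all of these and 8, 6 and 6 members for WT fat against liver, fat against skin and skin against liver, counts over 9 members that include *Aqp7* although it was at background in liver (9, 6 and 5 without the block). Adding the scanner file of fat WT 2 as deposited left 3 of 9 members called between WT fat and skin, instead of 6; leaving out single arrays gave 3 (without fat WT 3) to 6, and 7 to 9 for fat against liver and 5 to 7 for skin against liver. *Cebpa* in WT fat against liver reversed to 0.06 on quantile-normalized values. Over all genes, calls between KO and WT ran from 0 to 54 in fat, 0 to 124 in skin and 0 to 27 in liver, the highest in fat and skin from one fit of all 6 groups (main: 2, 2 and 3). Calls of a difference in effect ran from 1 to 47 for fat minus liver (main 9), 0 to 145 for fat minus skin (68) and 1 to 97 for skin minus liver (24), and calls between WT fat and skin from 5973 to 14884 (9232), the highest without a filter. The all-gene median of fat minus skin was −0.11 with normexp, 0.29 with quantile values, 0.00 in the table and −0.68 without the filter on dim probes. A random slide term could not be fitted in liver. The second-probe fit and the fits without doubtful arrays were chosen after seeing the data. Few arrays, and slides that rarely hold both genotypes, limit what could be detected.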
